A study of Mus musculus with 10 samples.

Results

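The growth factors and repair-linked secreted proteins that macrophages release were examined as a set of 10 genes, Igf1, Pdgfa, Pdgfb, Pdgfc, Tgfb1, Tgfbi, Hbegf, Vegfb, Osm and Grn. They were taken by gene name from the 55487 genes of the count table, and all 10 passed the filter on low counts, a CPM (count scaled to a common library size) above 1 in 3 or more libraries, which left 13740 tested genes. The cells came from the spinal cords of 5 male eYFP reporter mice (C57BL/6 background, 8 to 12 weeks old) at the peak of experimental autoimmune encephalomyelitis (EAE), a paralytic disease set off by immunisation with a myelin peptide in adjuvant plus pertussis toxin. From each animal, viable CD3-Ly6G-CD45+CX3CR1+ cells were sorted into a YFP+ sample (200000 cells) and a YFP- sample (100000 cells), and the RNA of each was sequenced. Both samples of an animal shared its genotype, its immunisation and its disease stage, so that reporter fluorescence was the sorting difference between them. Fluorescence of the reporter does not define a cell type. The gate can hold monocyte-derived cells, microglia, central nervous system-associated macrophages and conventional dendritic cells together. No healthy or recovered animal was analysed here.

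Macrophages that clear debris also secrete factors that act on neighbouring cells. Insulin-like growth factor 1 and the platelet-derived growth factors act on oligodendrocyte-lineage, mural and stromal cells, transforming growth factor β1 restrains inflammation and drives matrix production, and heparin-binding EGF-like growth factor, vascular endothelial growth factor B and oncostatin M act on glia, vessels and stroma. Tgfbi, a matrix protein induced by TGF-β, and Grn, which encodes the lysosomal and secreted protein progranulin, are not classical growth factors but are counted with them as repair-linked products of macrophages.

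Total counts ran from 28870482 to 33826355 in the 5 YFP+ libraries. In the YFP- libraries they ran from 8396863 in animal m234 to 35455643, with 28212174 in the next lowest, so that the YFP- library of m234 was by far the shallowest. Values given per library below follow the order of animals m2, m6, m234, m235 and m236.

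Pdgfc was the only member that passed the test between YFP+ and YFP- cells, edgeR's quasi-likelihood test with a Benjamini-Hochberg false discovery rate (FDR) below 0.05 over all tested genes. Thus 1 of 10 members was higher in YFP+ cells, beside 6.82% of all tested genes, and 0 of 10 were lower, beside 6.15%. At an unadjusted p below 0.05 edgeR gave 2 higher members and 1 lower, beside 15% of all tested genes each way. DESeq2 called 2 members higher and 0 lower at its FDR, beside 9.29% and 9.51% of all tested genes, and limma-trend 1 and 0, beside 6.65% and 6.12%. No member also had an absolute log2 fold change above 1, a pair of limits that 1.45% of tested genes passed. The YFP+ and YFP- libraries overlapped for all 10 members, where 11.3% of tested genes had groups that did not overlap. Because both libraries of an animal deviated together, the test was also run with the animal as a block: 5 members were then higher (Grn, Hbegf, Igf1, Pdgfc and Vegfb; 16.8% of all tested genes were) and 2 lower (Pdgfb and Tgfb1; 18.3% were). The median log2 fold change of the members was 0.22, and that of all tested genes was -0.00. Scaling by total counts in place of TMM factors gave 35.4% of all called genes as higher, in place of 52.6%. It turned no member's direction. Bulk samples cannot tell fewer cells of a type from less RNA per cell.

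**Figure D1:**
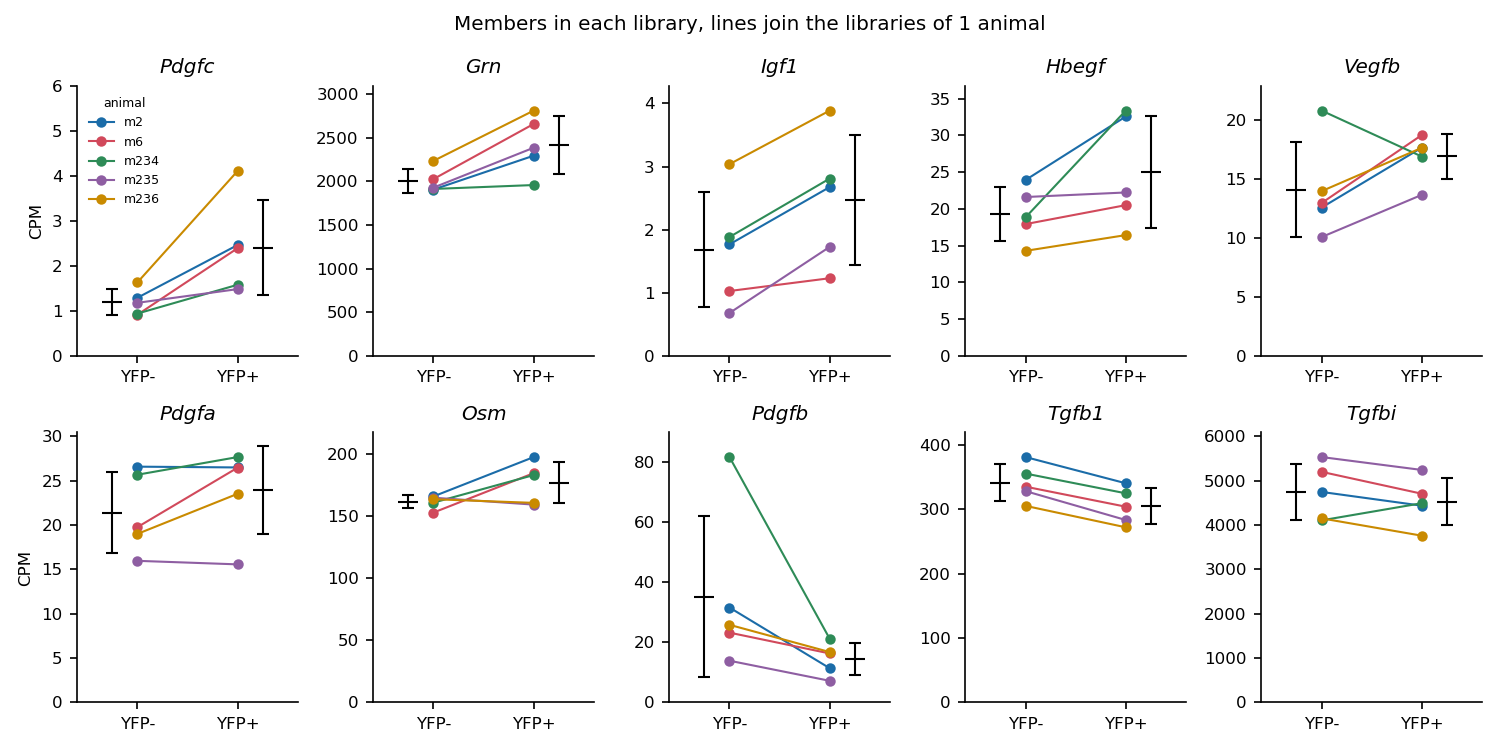
Normalised counts (CPM, linear axes from 0) of the 10 members in the YFP- and YFP+ library of each of the 5 animals, with lines joining the libraries of 1 animal and black bars giving mean ± SD. The animals differed more from each other than their paired libraries did for several members, and the groups overlapped for each.

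Levels between members can be set side by side only per length, as CPM per kilobase of annotated exon. In YFP+ cells, Tgfbi was the highest at 1668 ± 197 CPM per kilobase (SD, n = 5), followed by Grn at 1034 ± 142. Tgfb1 came next at 140.3 ± 13.03 CPM per kilobase and Osm at 77.8 ± 7.29. The libraries of these neighbours did not overlap in either group, so the order Tgfbi, Grn, Tgfb1, Osm held in YFP+ and in YFP- cells. A middle tier followed with Vegfb at 13.2 ± 1.51, Hbegf at 10.5 ± 3.18, Pdgfa at 8.13 ± 1.67 and Pdgfb at 4.94 ± 1.83 CPM per kilobase in YFP+ cells, where each neighbour's libraries overlapped the next. In YFP- cells the same tier ran from 7.27 (Pdgfa) to 11.97 (Pdgfb) CPM per kilobase, with overlapping libraries; the mean of Pdgfb there rests on m234, at 27.7 CPM per kilobase. Pdgfc at 0.684 ± 0.300 and Igf1 at 0.249 ± 0.104 CPM per kilobase were the lowest members in YFP+ cells, and their YFP- libraries overlapped. Igf1 has 7 annotated transcripts, Pdgfa 4, Vegfb 2 and each other member 1. Alignments were counted per transcript in Union mode, and the authors do not state whether a read shared by several transcripts was dropped or counted for each. The first would lower the levels of those 3 and the second raise them. The effect on their ratio between groups was not tested.

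Among the platelet-derived growth factors, Pdgfc and Pdgfb lay on opposite sides of equal levels. Pdgfc (ENSMUSG00000028019, chr3:81036416-81214040, plus strand; GRCm38 as for all positions below) encodes PDGF-C, a latent ligand of PDGF receptor α that is cleaved outside the cell. It stood at 2.47, 2.40, 1.58, 1.49 and 4.12 CPM in the YFP+ libraries and at 1.29, 0.917, 0.942, 1.18 and 1.64 CPM in the YFP- libraries. It was higher in YFP+ cells of 5 of 5 animals, by the least in m235, and both libraries of m236 were the highest of their groups. The YFP+ and YFP- ranges overlapped because the YFP- library of m236 lay above the YFP+ libraries of m234 and m235. The fitted difference was close to a doubling (log2 fold change 0.98 ± 0.292 SE, FDR = 0.0459; exact two-sided permutation p = 0.0238, n = 5 each). The counts behind it were low, 369 in all YFP+ and 164 in all YFP- libraries, and the call was lost when the YFP+ library of m236, m6 or m2 was left out (FDR = 0.0905, 0.084 and 0.0903). It was also lost without the YFP- library of m2, m6, m234 or m235 (FDR = 0.0798, 0.105, 0.0671 and 0.0751), without animal m236, m235, m6 or m2 (FDR = 0.0702, 0.051, 0.17 and 0.15) and with total-count scaling (FDR = 0.0506). Over all alternatives its FDR ran from 0.000791 to 0.17 and its log2 fold change stayed between 0.70 and 1.16. An antisense gene, Gm16000, overlaps 4.17% of the exon bases of Pdgfc, and how reads there were counted depends on the use of the strand, which the authors do not state. Exact permutation tests, here and below, ignored the pairing of libraries by animal.

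The 2 tested genes at a mean of 10 CPM or more whose log2 CPM followed Pdgfc most closely over the 10 libraries, each gene centred on its own mean, were Lyz2 (mean absolute difference 0.22 on the log2 scale) and Lyz1 (0.23), out of 8632 such genes with a median of 0.51. Both encode lysozyme, and since the genes are near-identical copies their counts are uncertain. Pdgfc deviated from its own mean by 0.49 on average, so a gene with no variation would lie at that distance, near the median. The summed CPM of 10 markers of border-associated macrophages, most of it F13a1 and Stab1, was also higher on the YFP+ side in 5 of 5 animals. It was 2119.9, 2437, 1848, 2159 and 2723 in the YFP+ and 1369, 1657, 1082, 1551 and 1765 in the YFP- libraries, highest in both libraries of m236. Of 6 tested markers of that list, 4 were higher in YFP+ cells and 0 lower; F13a1 had the highest CPM (1021 ± 238 against 595 ± 193 CPM; FDR = 0.0511, 1.62e-05 with the block), Mrc1 (log2 fold change 1.16 ± 0.315 SE, FDR = 0.032) and Pf4 (log2 fold change 1.88 ± 0.315 SE, FDR = 0.00324) rose most, and Cd163, Lyve1, Folr2 and Cbr2 stayed below the filter. Clec12a went the other way, higher in YFP+ cells of only 1 of 5 animals (log2 fold change -0.16 ± 0.122 SE, FDR = 0.423). The part of these markers in the Pdgfc difference was not tested.

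Pdgfb (ENSMUSG00000000489, chr15:79995874-80014977, minus strand) encodes the B chain of PDGF, the ligand that recruits pericytes through PDGF receptor β. Its YFP+ libraries held 11.4, 16.3, 21.1, 7.19 and 16.8 CPM and its YFP- libraries 31.6, 23.2, 81.7, 13.9 and 25.8 CPM. It was lower in the YFP+ cells of all 5 animals, and the YFP- library of m234 stood far above the other 9. The YFP- library of m235 lay inside the YFP+ range, so the groups overlapped. The difference did not pass the test (log2 fold change -1.23 ± 0.423 SE, FDR = 0.0767; exact two-sided permutation p = 0.0476, n = 5 each), whereas it did with the animal as a block (log2 fold change -1.11 ± 0.184 SE, FDR = 0.00134). It also passed without the YFP- library of m235 (FDR = 0.0372) and with no filter on low counts (FDR = 0.0424). Without the YFP- library of m234 it shrank to a log2 fold change of -0.70 (FDR = 0.131). The blocked fit without animal m234 gave -0.87 (FDR = 6.37e-05), and the FDR ran from 6.37e-05 to 0.215 over all alternatives.

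Microglial markers ran in parallel to Pdgfb in part. The summed CPM of 9 markers was 326, 305, 331, 159 and 352 in the YFP+ and 611, 344, 1493, 219 and 414 in the YFP- libraries. The sum was lower in the YFP+ library of each animal, by far the most in m234, whose YFP- library was also the highest for Pdgfb. None of the 9 markers passed the edgeR test, although 6 were lower at an unadjusted p below 0.05, DESeq2 called 2 lower and limma-trend 0, and 8 were lower with the animal as a block. Olfml3 had the highest CPM of them in YFP+ cells (101 ± 26.1 against 156 ± 92.8; log2 fold change -0.61 ± 0.341 SE, FDR = 0.253) and Sparc in YFP- cells (58.6 ± 20.9 against 202 ± 241; log2 fold change -1.76 ± 0.621 SE, FDR = 0.0818; FDR = 0.0227 with the block), the latter through m234, and no marker of the list was at 0. The part of microglia in the Pdgfb values was not tested.

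**Figure D2:**
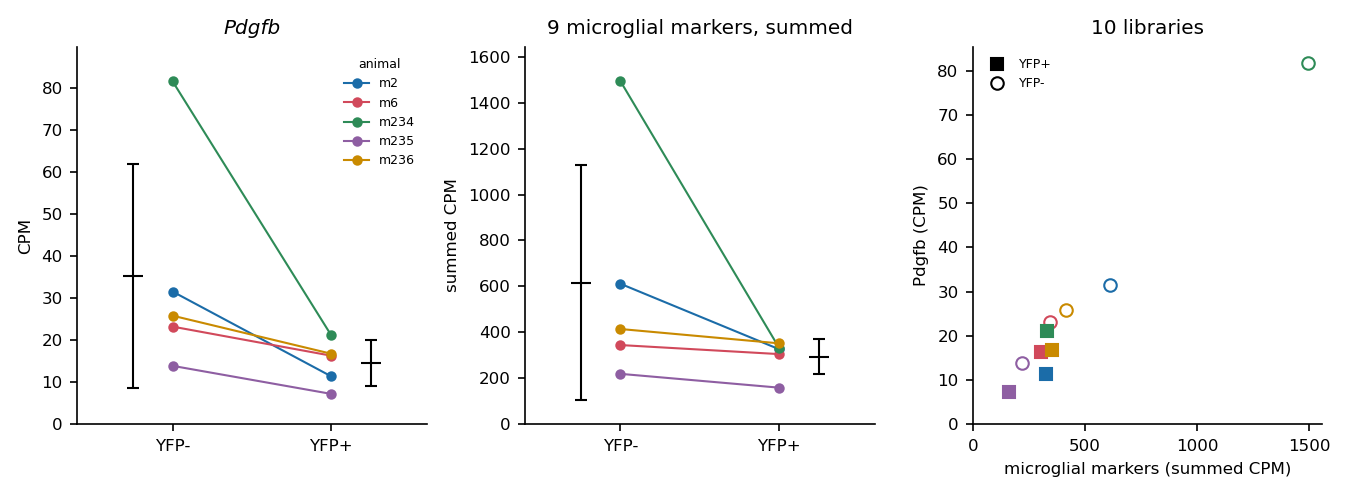
Pdgfb (CPM) and the summed CPM of 9 microglial markers in the YFP- and YFP+ library of each animal (lines join 1 animal, black bars give mean ± SD), and both plotted against each other for the 10 libraries. The YFP- library of m234 is the highest in both, at 81.7 and 1493 CPM.

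Pdgfa (ENSMUSG00000025856, chr5:138976014-138997370, minus strand) encodes the A chain, the main mitogen of oligodendrocyte progenitors. It ranged from 15.6 to 27.6 CPM in YFP+ and from 15.95 to 26.6 CPM in YFP- libraries, with both libraries of m235 at the foot, and was higher in YFP+ cells of 3 of 5 animals (log2 fold change 0.17 ± 0.171 SE, FDR = 0.533). The log2 fold change was 0.29 without the YFP+ library of m235, 0.27 and 0.09 without the YFP- library of m2 or m235, and 0.11 without animal m6. Antisense transcripts of 6330403L08Rik overlap 27.6% of its exon bases. Within a library, the log2 count ratio of Pdgfb to Pdgfa was -1.22, -0.70, -0.39, -1.11 and -0.49 in YFP+ cells and 0.25, 0.23, 1.67, -0.20 and 0.44 in YFP- cells. The 2 groups did not overlap in this ratio: A-chain counts exceeded B-chain counts in all YFP+ libraries, and the reverse held in all YFP- libraries but that of m235. Which chain had more counts within a library also depends on how shared and antisense reads of Pdgfa were counted, which the authors do not state. The mean difference was -1.26 (exact two-sided permutation p = 0.00794, the smallest that 5 against 5 allows; 0.0317 after Benjamini-Hochberg adjustment over 4 ratios; lower in YFP+ cells of 5 of 5 animals). It was -0.96 without the YFP- library of m234. The permutation ignored the pairing of libraries by animal, so its p-value is not exact for paired libraries. No permutation within animals was run. Leaving out an animal leaves 4 against 4 libraries, where the exact p cannot fall below 0.0286. The ratio stood at that floor without each animal (adjusted 0.0571 without m234 and 0.114 without any other), so a miss of the adjusted limit there says nothing of its stability. The difference was -1.35 to -1.06 in those settings. Without the YFP+ library of m2, m6, m235 or m236 the limit was also missed (exact permutation p = 0.0159, adjusted 0.0635 each), at a difference of -1.34 to -1.15. The log2 ratio of Pdgfc to Pdgfa was -3.38 ± 0.574 in YFP+ and -4.17 ± 0.508 in YFP- cells (exact permutation p = 0.0476, adjusted 0.0952), higher in YFP+ cells of 5 of 5 animals but not past the adjusted limit. Without the YFP+ library of m234 it did pass (adjusted exact permutation p = 0.0317). Of the 7 other genes of the PDGF system 4 were tested and 0 were called in either direction by edgeR, with or without the block, by DESeq2 or by limma-trend, and 0 had an unadjusted p below 0.05. The receptor genes Pdgfra and Pdgfrb stayed below the filter, and Furin, the protease that matures the A and B chains, was the most abundant (377 ± 14.7 against 395 ± 31.8 CPM).

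Igf1 (ENSMUSG00000020053, chr10:87858265-87937042, plus strand) was scarce. Its YFP+ libraries held 2.68, 1.23, 2.81, 1.73 and 3.89 CPM and its YFP- libraries 1.77, 1.03, 1.88, 0.680 and 3.04 CPM. It was higher in the YFP+ cells of 5 of 5 animals, yet animals differed more than the paired libraries, with both libraries of m236 at the top. The difference did not pass without an animal term (log2 fold change 0.57 ± 0.394 SE, FDR = 0.359) and did with it (log2 fold change 0.59 ± 0.182 SE, FDR = 0.0302). In the fit with no animal term the value was 0.34 without the YFP+ library of m236, and 0.36 and 0.95 without the YFP- library of m235 or m236. Under the block the call was lost without animal m2, m235 or m236 (FDR = 0.0922, 0.0863 and 0.0522), and over all alternatives the FDR ran from 0.024 to 0.618. Around it, 7 of 13 genes of the IGF system were tested. Igf2r, the receptor that removes IGF2 and sorts lysosomal enzymes (293 ± 29.5 against 207 ± 33.7 CPM; log2 fold change 0.50 ± 0.109 SE, FDR = 0.0121), Irs2, the most abundant of the list and the adaptor below the insulin and IGF1 receptors (log2 fold change 0.43 ± 0.0971 SE, FDR = 0.0144), and the insulin receptor gene Insr (log2 fold change 0.24 ± 0.0526 SE, FDR = 0.0123) rose in YFP+ cells. Igfbp6, a binding protein with a preference for IGF2, fell (log2 fold change -1.92 ± 0.295 SE, FDR = 0.00201). It reached 1 CPM in no YFP+ library and 4 YFP- libraries, and was also called with no filter (FDR = 0.00048). With the block Igf1r was also higher (FDR = 0.00415). Igf2 was at 0 in all libraries.

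Hbegf (ENSMUSG00000024486, chr18:36504927-36515805, minus strand), a membrane-anchored EGF receptor ligand released by proteases, stood at 32.6, 20.5, 33.4, 22.2 and 16.4 CPM in YFP+ and 23.9, 17.9, 18.8, 21.6 and 14.3 CPM in YFP- libraries. Each animal was higher in its YFP+ library, m234 and m2 by the most and m235 hardly at all, with overlap between the groups. The test gave log2 fold change 0.37 ± 0.198 SE, FDR = 0.231, with 0.25 without the YFP+ library of m234 and 0.24 without that animal, and the blocked test log2 fold change 0.32 ± 0.0946 SE, FDR = 0.0242, a call lost without m2 (FDR = 0.104; all alternatives 0.0144 to 0.477). Of 20 other EGF family genes 13 were tested, with 0 higher and 1 lower, Rhbdf2, which escorts the sheddase ADAM17 to the surface (163 ± 11.3 against 200.4 ± 18.4 CPM; log2 fold change -0.30 ± 0.0722 SE, FDR = 0.0198). With the block 4 were higher and 5 lower. At an unadjusted p below 0.05 edgeR gave 2 higher and 5 lower, DESeq2 called 0 higher and 2 lower, and limma-trend 0 and 1. Cd44, which can present the ligand at the cell surface, had the highest CPM of the list and differed little (log2 fold change 0.00 ± 0.119 SE, FDR = 0.986); per length Cd9 stood above it.

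Vegfb (ENSMUSG00000024962, chr19:6982473-6987651, minus strand) encodes a ligand of VEGF receptor 1. It was at 17.7, 18.8, 16.9, 13.7 and 17.7 CPM in the YFP+ libraries and 12.6, 12.98, 20.8, 10.1 and 13.98 CPM in the YFP- libraries. It was higher in YFP+ cells of 4 of 5 animals, and m234, with the highest YFP- value of all, went the other way. The test gave log2 fold change 0.30 ± 0.159 SE, FDR = 0.231; without the YFP- library of m234 it passed (log2 fold change 0.45, FDR = 0.0252), as it did without both libraries of m234 (FDR = 0.0397) and with the block (log2 fold change 0.32 ± 0.108 SE, FDR = 0.0416). The blocked call was lost without m2, m6, m235 or m236 (FDR = 0.161, 0.159, 0.116 and 0.103), and the FDR ran from 8.8e-05 to 0.508 over all alternatives. Its family was split. Of 7 tested among 9 listed VEGF genes, 2 were higher, Vegfa, the main angiogenic ligand (1332 ± 144 against 976 ± 70.5 CPM; log2 fold change 0.45 ± 0.0842 SE, FDR = 0.00599), and its co-receptor Nrp2 (log2 fold change 0.56 ± 0.0782 SE, FDR = 0.00123). Lower in YFP+ cells were 3 genes, the ligand Pgf (log2 fold change -1.19 ± 0.254 SE, FDR = 0.0112) and the receptor genes Kdr (log2 fold change -0.82 ± 0.200 SE, FDR = 0.0204) and Flt1 (log2 fold change -0.47 ± 0.132 SE, FDR = 0.037). Pgf reached 1 CPM in 1 YFP+ library and 5 YFP- libraries, and was also called with no filter (FDR = 0.0111). The log2 count ratio of Vegfb to Vegfa was -6.30 ± 0.268 in YFP+ and -6.15 ± 0.473 in YFP- cells (exact permutation p = 0.611, n = 5 each), yet higher in YFP+ cells of 4 of 5 animals. The difference, -0.14, turned to 0.04 without the YFP- library of m234. It was -0.06 and -0.22 without the YFP+ library of m235 or m236 and -0.28 without the YFP- library of m235.

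**Figure D3:**
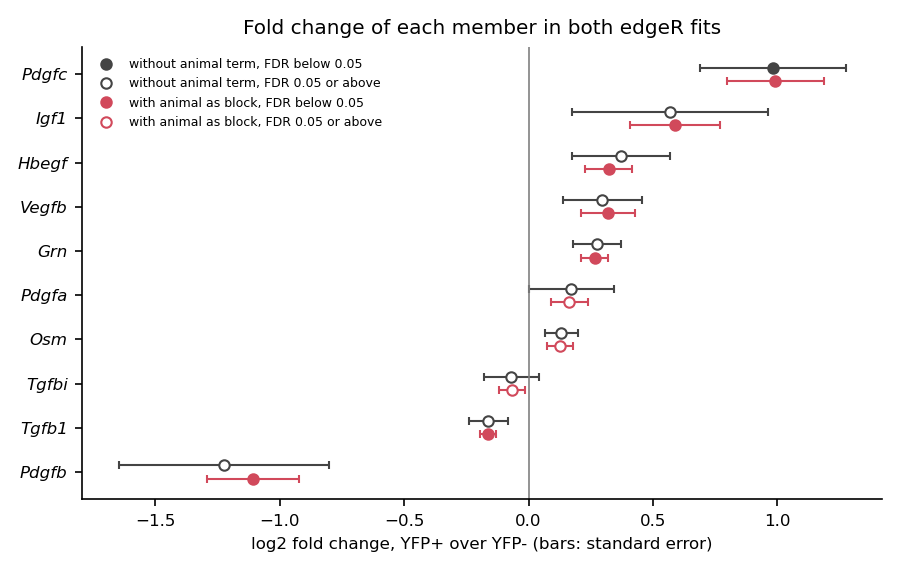
Log2 fold change of YFP+ over YFP- cells for the 10 members from edgeR without an animal term (grey) and with the animal as a block (red), with bars of 1 standard error and filled points at an FDR below 0.05. Pdgfc is filled in both, and Igf1, Hbegf, Vegfb, Grn, Tgfb1 and Pdgfb in the blocked fit.

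Tgfb1 (ENSMUSG00000002603, chr7:25687002-25705077, plus strand) held 341, 304, 325, 284 and 272 CPM in the YFP+ libraries and 381, 335, 356, 329 and 306 CPM in the YFP- libraries. It was lower in the YFP+ cells of 5 of 5 animals by nearly the same step, from -0.21 to -0.13 in log2 CPM, while the animals themselves spread more widely, so the groups overlapped. The small difference passed with the block (log2 fold change -0.16 ± 0.0330 SE, FDR = 0.00406) and not without it (log2 fold change -0.16 ± 0.0781 SE, FDR = 0.187; exact two-sided permutation p = 0.0952, n = 5 each; FDR 0.00152 to 0.369 over all alternatives). Tgfbi (ENSMUSG00000035493, chr13:56609523-56639562, plus strand), the most abundant member, ranged from 3759.9 to 5242 CPM in YFP+ and from 4105 to 5534 CPM in YFP- libraries. It was higher in YFP+ cells of 1 of 5 animals, m234, and the interval of its log2 fold change, from the standard error with 8 residual degrees of freedom at 95%, was -0.32 to 0.18 (FDR = 0.714). The log2 fold change, -0.07, was -0.13 and -0.01 without the YFP+ library of m235 or m236, and -0.03, -0.11, -0.00 and -0.11 without the YFP- library of m6, m234, m235 or m236. The blocked fit without animal m234 called it lower (log2 fold change -0.12, FDR = 0.0364; 0.0364 to 0.991 over all alternatives). The log2 ratio of Tgfbi to Tgfb1 was 3.89 ± 0.201 in YFP+ and 3.79 ± 0.224 in YFP- cells (exact permutation p = 0.484, n = 5 each), and higher in YFP+ cells of 4 of 5 animals. The difference, 0.10, was 0.02 without the YFP+ library of m235, and 0.06, 0.03 and 0.17 without the YFP- library of m2, m234 or m235.

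The TGF-β system held 29 further genes, 22 of them tested: 1 was higher in YFP+ cells, 1 was lower, and the median log2 fold change was -0.04. The gene that rose was Ltbp3, which binds latent TGF-β to the matrix (46.04 ± 17.3 against 21.2 ± 8.47 CPM; log2 fold change 1.11 ± 0.306 SE, FDR = 0.034). The gene that fell was Nrros, the surface anchor of latent TGF-β1 on microglia and macrophages (120.5 ± 7.84 against 141 ± 7.37 CPM; log2 fold change -0.23 ± 0.0588 SE, FDR = 0.0274). With the animal as a block 3 were higher and 8 lower. Thbs1, whose product activates latent TGF-β, was the most abundant of the list (log2 fold change 0.13 ± 0.115 SE, FDR = 0.472).

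Osm (ENSMUSG00000058755, chr11:4236420-4241026, plus strand) encodes a cytokine of the interleukin-6 family. It ranged from 159 to 197 CPM in YFP+ and from 153 to 166 CPM in YFP- libraries, and was higher in YFP+ cells of 3 of 5 animals, m2, m6 and m234 (log2 fold change 0.13 ± 0.0656 SE, FDR = 0.2). The blocked fit without animal m235 called it higher (FDR = 0.0458; 0.0458 to 0.494 over all alternatives). Of 13 genes of its family and signalling 8 were tested, with 0 higher and 2 lower, Il6ra, the interleukin-6 receptor gene (128 ± 7.88 against 167 ± 17.5 CPM; log2 fold change -0.39 ± 0.0736 SE, FDR = 0.0064), and Stat3 (389 ± 12.4 against 444 ± 26.99 CPM; log2 fold change -0.19 ± 0.0560 SE, FDR = 0.043). At an unadjusted p below 0.05 edgeR gave 2 higher, DESeq2 called 1 and limma-trend 0, and with the block 2 were higher and 3 lower. Socs3, the feedback inhibitor and the highest tested gene of the list per length, differed little (log2 fold change -0.03 ± 0.0535 SE, FDR = 0.749), and the receptor gene Osmr stayed below the filter.

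Grn (ENSMUSG00000034708, chr11:102430315-102437048, plus strand) encodes progranulin, which is taken up through sortilin or carried by prosaposin to lysosomes, where it is cut into granulins. Grn stood at 2292, 2656, 1956, 2384 and 2809 CPM in YFP+ and 1904, 2024, 1911, 1927 and 2233 CPM in YFP- libraries. It was higher in 5 of 5 animals, barely so in m234, and overlapped because the YFP+ library of m234 fell among the YFP- libraries. The test gave log2 fold change 0.27 ± 0.0962 SE, FDR = 0.0801 (exact two-sided permutation p = 0.0317, n = 5 each), and the blocked test log2 fold change 0.27 ± 0.0537 SE, FDR = 0.00394. It also passed without the YFP+ library of m234 (FDR = 0.0228), without both libraries of m234 (FDR = 0.0365) and by DESeq2 (FDR = 0.0305), and the FDR ran from 2.72e-05 to 0.246 over all alternatives. Of 12 genes listed for progranulin transport, cleavage and opposing receptors 11 were tested, 5 were higher and 1 lower, with a median log2 fold change of 0.40. Sort1, the sortilin gene (109.8 ± 18.6 against 70.8 ± 8.31 CPM; log2 fold change 0.64 ± 0.118 SE, FDR = 0.00553), Psap, the prosaposin gene and most abundant of the list (17570.3 ± 2055 against 11664 ± 1155 CPM; log2 fold change 0.59 ± 0.101 SE, FDR = 0.00353), and the protease gene Ctsl (953 ± 83.5 against 656 ± 46.1 CPM; log2 fold change 0.54 ± 0.0752 SE, FDR = 0.00121) rose. The uptake receptor gene Lrp1 (log2 fold change 0.45 ± 0.0862 SE, FDR = 0.00645) and the lysosomal membrane protein gene Tmem106b (log2 fold change 0.40 ± 0.0827 SE, FDR = 0.00986) also rose, all 5 without overlap between the groups. Over all related lists, chosen with earlier results of these data known, the groups did not overlap for 18 of 88 tested genes. Over all tested genes this held for 11.3%. The TNF receptor gene Tnfrsf1a fell (log2 fold change -0.23 ± 0.0565 SE, FDR = 0.0203). With the block 7 were higher, Slpi (FDR = 0.00675) and Mmp12 (FDR = 0.00338) in addition.

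RefSeq promoter windows (GRCm38.p6, 250 bases before to 50 after the RefSeq start) were at hand for 7 members. The RefSeq start of Grn lies downstream of the gene start given above. The letters TCANNTGA, a palindrome read alike on both strands that includes E-box forms bound by lysosomal regulators of the MiT/TFE family, were chosen after the Grn window had been read. They occur in 8.39% of all 32851 windows and at least 2 times in 0.533%. Grn (chr11:102430257-102430556, plus strand) holds 2 matches, Vegfb (chr19:6987602-6987901, minus strand) 1, and the other 5, Igf1, Pdgfa, Pdgfc, Tgfb1 and Tgfbi, none. In the progranulin list, 2 of 11 genes with a window had a match, Slpi and Mmp12, while Psap, Ctsl, Lrp1 and Tmem106b had none. Shown are the member windows with a match and that of Pdgfc (chr3:81036166-81036465, plus strand), the only member called in both fits. Capitals mark the matches, 5′ to 3′ on the gene's strand. A match is a description of the letters and not a site.
Grn: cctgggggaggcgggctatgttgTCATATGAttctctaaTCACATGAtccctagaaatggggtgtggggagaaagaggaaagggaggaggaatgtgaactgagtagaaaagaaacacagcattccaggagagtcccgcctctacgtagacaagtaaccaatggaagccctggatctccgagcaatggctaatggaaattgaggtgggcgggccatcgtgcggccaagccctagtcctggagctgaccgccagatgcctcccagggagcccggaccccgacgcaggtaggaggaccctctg
Vegfb: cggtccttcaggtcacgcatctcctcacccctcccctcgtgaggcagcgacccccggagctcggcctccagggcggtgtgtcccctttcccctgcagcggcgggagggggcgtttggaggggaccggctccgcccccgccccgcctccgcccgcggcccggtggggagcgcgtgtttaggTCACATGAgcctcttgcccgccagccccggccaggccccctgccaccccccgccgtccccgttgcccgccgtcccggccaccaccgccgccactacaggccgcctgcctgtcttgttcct
Pdgfc: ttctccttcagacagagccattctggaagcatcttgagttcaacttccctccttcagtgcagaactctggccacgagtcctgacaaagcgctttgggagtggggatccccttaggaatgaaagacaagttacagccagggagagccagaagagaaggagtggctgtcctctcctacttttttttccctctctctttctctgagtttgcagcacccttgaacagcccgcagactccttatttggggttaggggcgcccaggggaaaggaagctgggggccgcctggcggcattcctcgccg

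**Figure D4:**
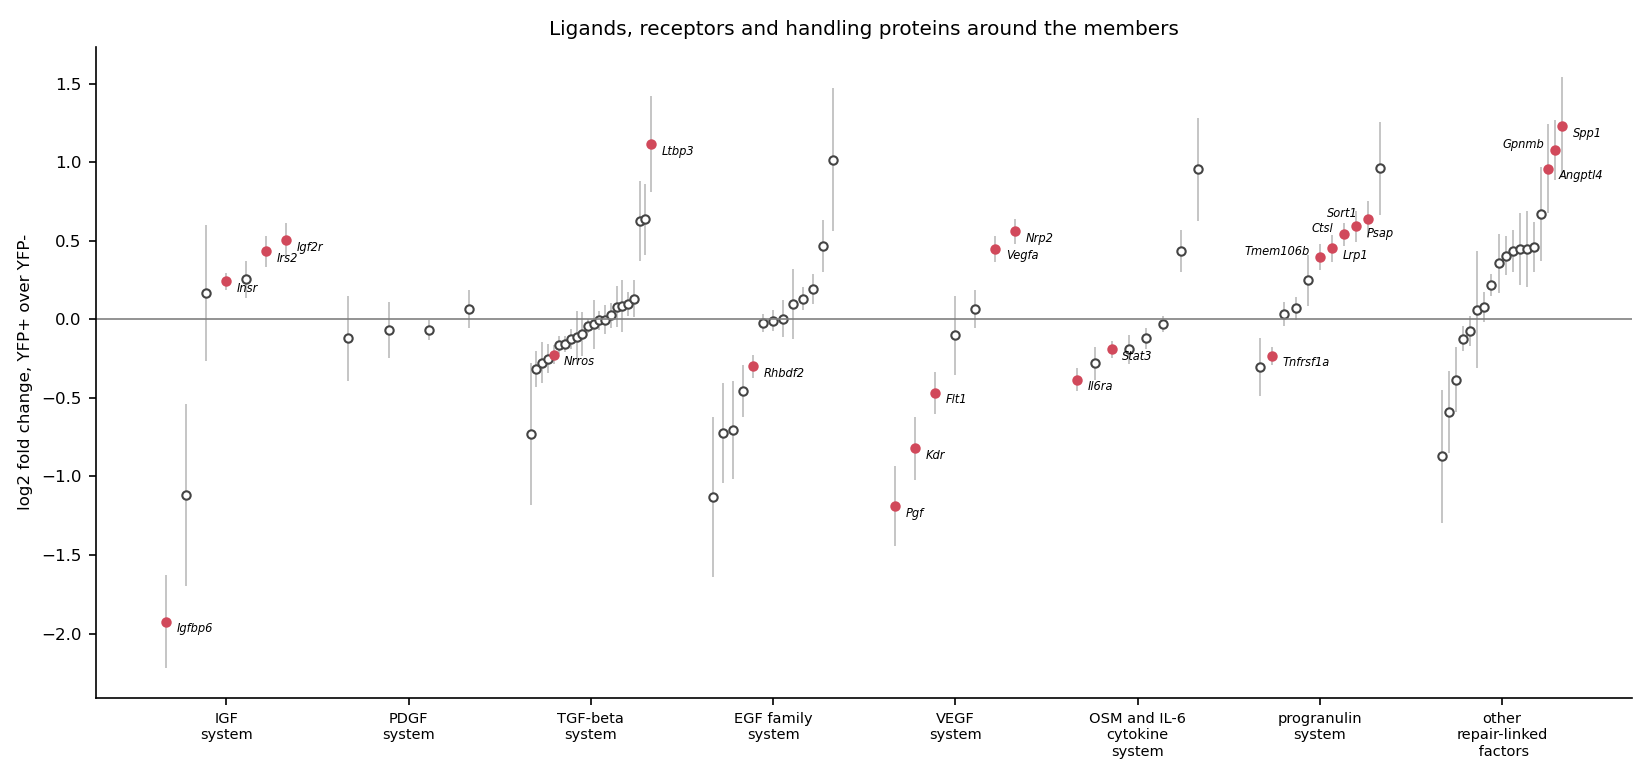
Log2 fold change of YFP+ over YFP- cells (edgeR without an animal term, bars of 1 standard error) for the tested genes of 8 lists of ligands, receptors and handling proteins around the members, with red points at an FDR below 0.05. The progranulin list holds 5 red points above 0 and the PDGF list none.

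Over all 8 lists, 88 of 124 genes were tested, with a median log2 fold change of 0.01. YFP+ cells had 14 of these 88 higher and 9 lower (15.9% and 10.2%, beside 6.82% and 6.15% of all tested genes). With the block 32 were higher and 22 lower (36.4% and 25%, beside 16.8% and 18.3% of all tested genes). The lists were chosen with earlier results of these data known, so these shares are no measure of enrichment. The last list took 24 other factors linked to repair, 18 of them tested, of which 3 were higher and 0 lower, with a median of 0.38. These were Spp1, encoding osteopontin (1764 ± 758 against 752 ± 324 CPM; log2 fold change 1.23 ± 0.316 SE, FDR = 0.0261), Gpnmb, a transmembrane glycoprotein of lysosome-rich macrophages (2204 ± 441 against 1044 ± 292 CPM; log2 fold change 1.08 ± 0.193 SE, FDR = 0.00466), and Angptl4 (log2 fold change 0.96 ± 0.282 SE, FDR = 0.044). With the animal as a block 11 were higher and 1 lower. At an unadjusted p below 0.05 edgeR gave 8 higher and 1 lower, DESeq2 called 7 and 0, and limma-trend 2 and 0. Apoe was the most abundant (log2 fold change 0.45 ± 0.242 SE, FDR = 0.238; FDR = 0.000632 with the block). The neurotrophin gene Bdnf was at 0 in all libraries.

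The gate was checked with markers of the cells it could hold. Of 10 macrophage markers YFP+ cells had 4 higher and 1 lower (5 and 4 with the block), with a summed level of 16090.4 to 20482 CPM in YFP+ and 13879.6 to 16191 CPM in YFP- libraries, led by Lyz2 (log2 fold change 0.65 ± 0.128 SE, FDR = 0.00764). Cx3cr1, whose product the sort used, was at 139.6 ± 66.97 against 282 ± 176 CPM, lower in YFP+ cells of 5 of 5 animals (log2 fold change -1.01 ± 0.447 SE, FDR = 0.153; FDR = 9.24e-05 with the block). Of 9 monocyte markers 0 were higher and 4 lower (12645 to 16149 against 8629 to 13684 summed CPM, most of it Fn1): Plac8, Gm9733, Ccr2 and Vcan had log2 fold changes of -2.19, -1.25, -1.12 and -1.005. With the block 3 were higher, Fn1, Chil3 and Hp (FDR = 0.000793, 0.00132 and 0.0217; each higher in 5 of 5 animals), and 5 lower, Ly6c2 in addition (FDR = 0.000262). Dendritic cell markers, 7 of 10 tested, gave 1 higher, Cd24a, the highest in CPM (log2 fold change 0.75 ± 0.153 SE, FDR = 0.00914), and 5 lower: Flt3, Dpp4, Ccl22, Ccr7 and Zbtb46, with log2 fold changes of -3.59, -3.55, -3.12, -2.76 and -1.65. Flt3, Dpp4 and Zbtb46 reached 1 CPM in no YFP+ library and were also called with no filter (FDR = 4.13e-06, 1.79e-05 and 0.0025). The summed level of the list was 199.7 to 265 against 132 to 198 CPM. Of 4 tested B and plasma cell markers 3 were lower, Ighm, the highest in CPM, Igkc and Jchain (log2 fold changes -1.91, -3.14 and -2.87; 5.85 to 17.6 against 32.3 to 68.4 summed CPM). Jchain, above 1 CPM in 1 YFP+ library, was also called with no filter (FDR = 0.0044). The monocyte and dendritic cell genes called lower without the block weigh little in the sums, which Fn1 and Cd24a lead and which were higher on average in YFP+ cells, whereas the B-lineage sum was lower there in every library. What such cells contribute to any member's level was not tested.

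T cell markers, 2 of 10 tested, summed to 184 to 334 against 101 to 178 CPM, nearly all of it Il7r (log2 fold change 0.90 ± 0.186 SE, FDR = 0.00961), and the CD3 genes stayed below the filter. Neutrophil markers, 4 of 10 tested, summed to 299.8 to 453 against 261 to 372 CPM, led by Mmp8 in YFP+ and Csf3r in YFP- cells, with Ly6g below the filter and S100a9 lower (log2 fold change -3.40 ± 0.708 SE, FDR = 0.00977). S100a9 reached 1 CPM in no YFP+ library and in 3 YFP- libraries, and was also called with no filter (FDR = 0.00166). With the block Mmp8 and S100a8 were higher and Csf3r lower too (FDR = 4.23e-05, 0.0154 and 0.00329). Platelets store PDGF and TGF-β1, and their 10 markers summed to 15.1 to 30.5 against 7.19 to 16.4 CPM, led by Pf4, which macrophages also express, with Gp1bb at 0 and Ppbp and Gp9 below the filter; Itgb3 was lower with the block (FDR = 0.0323). Oligodendrocyte markers summed to 148 to 181 against 138 to 198 CPM, led by Mbp (log2 fold change 0.18 ± 0.0611 SE, FDR = 0.0789), with none of 5 tested genes called without the block and 1 in each direction with it. Astrocyte markers summed to 19.99 to 30.2 against 23.3 to 33.7 CPM, led by Slc1a2, with Gja1 higher (log2 fold change 1.18 ± 0.210 SE, FDR = 0.00443) and, with the block, Slc1a3 lower (FDR = 0.00419). Endothelial and mural markers summed to 9.65 to 17.8 against 13.9 to 22.5 CPM, led by Pecam1 in YFP+ and Kdr in YFP- cells, with Kdr, 1 of 3 tested, lower as given with the VEGF genes. Whether endothelial cells enter the Kdr and Flt1 values was not tested. The 6 neuronal markers, led by Tubb3, summed to 0.394 to 1.04 against 0.322 to 0.834 CPM. Immediate early and dissociation-response genes, which tissue handling can raise, gave 3 higher of 13 tested and summed to 7183 to 9453 against 6329.7 to 8419.9 CPM, led by Fosb (log2 fold change 0.33 ± 0.0828 SE, FDR = 0.024) in YFP+ and Junb in YFP- cells. With the block 7 were higher, Junb among them (FDR = 0.00133), and 3 lower.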

How the data were processed

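RNA of sorted spinal cord cells was sequenced by the authors in single-end reads and aligned to GRCm38 with STAR 2.7.10b (version from the submitters' processing notes). The deposited table holds whole-number counts per gene that the authors summed from transcripts (Union mode), with no normalization; their methods do not state whether counting used the strand. Library totals from 8396863 to 35455643 counts set the precision, and only counting and animal-to-animal error is covered. Genes reaching more than 1 CPM in 3 or more libraries were fitted together in edgeR 4.0.16 (R 4.3.3; TMM library sizes, quasi-likelihood F test, Benjamini-Hochberg adjustment over all tested genes). CPM values use TMM library sizes; log2 CPM used a prior count of 2. Single values and ratios were compared by exact two-sided permutation of 5 against 5 libraries. These permutations ignored the pairing of libraries by animal, so their p-values are not exact for paired libraries. Alternatives were DESeq2 1.42.0, limma-trend 3.58.1, other scalings and filters, left-out libraries or animals, and the animal as a block. The labels name the animal of each library; residuals of the libraries of 1 animal correlated at 0.36 to 0.66 across genes, those of different animals at 0.07 or less. No replicate pair agreed as closely as sampling alone allows (lowest chi-square 17.8 per degree of freedom). Exon lengths, overlaps and transcript numbers came from GENCODE annotation of the same build. Members and lists were chosen with earlier results of these data known. Named were all members, in each related list up to 6 called genes and the one highest in CPM over both groups, in each marker list the gene highest in CPM, those at 0 and those called with an absolute log2 fold change above 1, and the 2 genes most like each called member; Pdgfra, Pdgfrb, Osmr and the other genes below the filter, related genes called only with the block, and the remaining markers, were named after their values were seen. Of the genes planned for naming or lists, 4 are not reported here. The scripts were tested on simulated counts.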

Additional observations from a re-analysis of the deposited data

Results flagged for a closer look

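A sample far from the other 4 of its group, by the ratio of its gap to the group's range, turned up in 3 of 24 checks over the members, library totals and summed microglial markers; chance alone gives about 1 in 20. The log2 CPM of Pdgfa in the YFP+ library of m235 was 3.96, with 4.56 in the nearest library, and the YFP- library of the same animal was also the lowest of its group. The summed CPM of 9 microglial markers in the YFP+ library of m235 was 159, against 305 in the nearest. The YFP- library of m234 held 8396863 counts, against 28212174 in the nearest; values without it stand beside the members it moved.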

How the results depend on the processing

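Every member kept its sign under every alternative. Which members were called depended on the fit. Members higher in YFP+ cells numbered 1; DESeq2 gave 2, total-count scaling 0, a minimum of 5 CPM in at least 5 libraries 0 (Pdgfc and Igf1 were then not tested), the fold change limit 0 and the replicate block 5; leaving out a library or animal gave 0 to 3. Members lower numbered 0, 1 with no filter, 2 with the block and 0 to 1 over the left-out libraries and animals. Leaving out each animal under the block, chosen after seeing the data, gave 2 to 5 higher and 2 to 3 lower. Of all tested genes 937 were higher and 845 lower. The block gave 2307 and 2519, the fold change limit 77 and 122, DESeq2 1276 and 1307, and total-count scaling 701 and 1282. Left-out libraries or animals gave 360 to 1037 and 284 to 911. The block without each animal (m2, m6, m234, m235, m236) gave 1478, 1681, 2706, 1762 and 1926 higher and 1612, 1845, 2823, 1816 and 2119 lower.

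Counts of related genes and microglial markers under these settings, and the no-filter values of single listed genes, were added after seeing the data. Related genes numbered 14 higher and 9 lower, 32 and 22 with the block, 3 and 2 with the fold change limit, 8 to 16 and 4 to 8 with left-out libraries or animals, and 28, 29, 32, 30 and 30 higher and 17, 20, 28, 20 and 20 lower under the block without each animal in that order. Microglial markers lower numbered 0, 2 by DESeq2, 1 with total-count scaling, 4 with no filter, 8 with the block, 0 to 6 with left-out libraries or animals and 1 to 9 under the block without each animal. For the difference in log2 ratio, left-out libraries or animals gave -1.43 to -0.96 for Pdgfb to Pdgfa, which passed the adjusted limit in 6 of the 10 settings that leave out 1 library (without an animal, 4 against 4 was too few for it to pass alone), and 0.57 to 0.97 for Pdgfc to Pdgfa. The uncalled ratio of Vegfb to Vegfa turned from -0.14 to 0.04 without the YFP- library of m234 and 0.0845 without both (lowest value -0.28). Beyond the calls given, the block changed no other call of a member. Why the settings differed was not tested.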
